A study of Mus musculus with 12 samples.

Results

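The T cell receptor alpha and delta locus was followed here through every peak that 12 DNase-seq libraries placed on mouse chromosome 14 (mm10) in a window that runs from the flank of the first V segment, across the rearranging parts (chr14:52425928-54235478), to the genes past Dad1. Its reference points were the constant gene records Trac (alpha chain; ENSMUSG00000076928.5, chr14:54220521-54224206, plus strand) and Trdc (delta chain; ENSMUSG00000104876.1, chr14:54142851-54148868, plus strand). Peaks of all libraries that overlapped by at least 1 bp were merged into DNase I hypersensitive sites (DHSs), and 158 of the 170207 DHSs on autosomes and the X chromosome had their midpoint in the window. Of these, 152 lay in the parts that are rearranged or that serve rearrangement. The V part held 124, the delta part (from past Trdv4 to the end of Trdv5) 15, the alpha J-C part (from there to the end of Trac) 9, and the interval between Trac and Dad1 4. A further 6 lay in the flank of Dad1, the neighbouring housekeeping gene, and the upstream flank had none.

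A complete T cell receptor gene does not exist in the germline. V, D and J segments are cut and joined by the RAG recombinase, which can act only on segments whose chromatin is open. In this locus the delta segments sit inside the alpha gene, between the V segments and the J alpha segments, so that a delta gene is assembled first and is deleted when alpha rearranges. A delta enhancer is known between the J delta segments and Trdc, an alpha enhancer downstream of Trac before Dad1, and a germline promoter ahead of the J alpha segments. The annotation used here marks none of these elements, so each DHS is called by its position alone.

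The libraries came from C57BL/6J mouse cells on the route from haematopoietic progenitor to early T cell precursor, in a study of how much Notch signal different promoters need. LSK cells (3 libraries) are freshly isolated marrow progenitors that are lineage-negative with high SCA1 and KIT. DN1 cells (2 libraries; KIT high, CD44 positive, CD25 negative), DN2a cells (2 libraries; KIT high, CD44 and CD25 positive) and DN2b cells (2 libraries; less KIT, low CD44, CD25 positive) were sorted from LSK cells grown on the immobilized Notch ligand Delta1, and IgG cells (3 libraries) are LSK cells grown on human IgG with no ligand. All cultures held SCF, FLT-3 ligand, IL-6 and IL-11. IL-7 was added to those for DN2a and DN2b and not to those for DN1, so stage, time in culture and IL-7 cannot be told apart. Groups came from the labels, which give neither age nor sex and do not say which DN libraries began from one LSK isolate. Replicate numbers only name a library.

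Each library is a list of 150 bp peaks with a score of unstated meaning, so a peak is described by its percentile, its rank by score within its own list on a scale of 0 to 100, with 0 for no peak. Read depth is unknown, and the number of peaks called stands in for it. It ran from 32977 to 111657, with the 3 IgG lists the shortest (32977 to 37550), DN2b 2 the longest and DN1 1 the next at 96508. For this reason the main counts of the locus are given as deposited and with each list cut to its 32952 highest peaks, called equal list lengths. Promoters of listed genes, and the stage at which a DHS first opened, were read from the lists as deposited only. Counts of listed promoters are given without the share over all promoters in each library. The promoter of Il2ra, which encodes CD25, was open in each of the 4 DN2 libraries and in no other library. Of 10 T precursor markers, 1 or 2 had an open promoter in LSK libraries, 4 in each DN1, 7 in each DN2a, 8 and 9 in DN2b, and 0 in IgG libraries. Of 8 natural killer and innate lymphoid markers, LSK libraries had 2 to 4, DN1 libraries 6 and 7, DN2a 4 and 5, DN2b 5 and 7, and each IgG library 1. Of 8 myeloid markers, IgG libraries had 4 or 5 and the other 9 libraries 2 to 4. Of 8 progenitor markers, LSK libraries had 5 or 6, DN1 4 and 5, DN2a 3 and 4, DN2b 4 and 5, and IgG 3 or 4, with Cd34 at 0 in all IgG libraries and Kit at a mean of 88.5 in LSK and 48.9 in IgG. Of 6 mast cell markers, 1 to 4 were open outside IgG and 0, 0 and 2 in IgG. Of 8 B markers, 1 to 3 were open in every library. Vpreb1 was open in all 12 (84.6 to 94.3), Ebf1 in 10 (29.5 to 65.9), Blnk in 6 (29.5 to 51.4) and Igll1 in DN2b 2 alone (51.0), while Cd79a, Cd79b and Pax5 were at 0 throughout. The part that other cells in a sort played in any result was not tested, and in bulk cells a site open in few cells cannot be told from one weakly open in all.

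The DHSs on which the account turns are shown as the 150 bases at their middle, read from the GRCm38 assembly behind mm10 on the plus strand. They are the highest DHSs of the delta part, the alpha J-C part and the interval, the DHSs nearest to Trdd2, between Trdj2 and Trdc, and ahead of Traj61, and 2 V part DHSs that opened with culture on Delta1 or at DN2. The Trdd2, Trdj2 to Trdc and Traj61 DHSs were picked after their values were seen. Capitals mark short words searched on both strands. The word taken for RUNX factors was TGTGGT and that for ETS factors was AGGAAG. TCF and LEF factors were given CTTTGA and GATA factors AGATAA. For E-box proteins the word CAGCTG was counted, and apart from it the related word CAGGTG. MYB was given the shorter word AACTG, and CREB the equally short word TGACG. The heptamer of recombination signals was CACAGTG, and CTCF was searched with a longer degenerate word. CAGCTG reads the same on both strands, and neighbouring motifs may share bases.
DHS before Trdd1, chr14:54111196-54111345: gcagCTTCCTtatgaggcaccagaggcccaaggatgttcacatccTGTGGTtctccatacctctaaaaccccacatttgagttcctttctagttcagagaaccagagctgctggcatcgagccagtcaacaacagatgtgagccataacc
Trdd2 DHS, chr14:54122086-54122235: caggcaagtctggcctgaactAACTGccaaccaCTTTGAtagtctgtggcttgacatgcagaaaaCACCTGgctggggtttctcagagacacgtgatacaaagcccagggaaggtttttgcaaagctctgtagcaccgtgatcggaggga
Trdj2 to Trdc DHS, chr14:54138396-54138545: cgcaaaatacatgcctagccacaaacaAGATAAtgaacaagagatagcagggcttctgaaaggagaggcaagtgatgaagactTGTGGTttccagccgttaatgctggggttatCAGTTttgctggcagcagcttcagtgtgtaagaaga
DHS before Traj61, chr14:54152956-54153105: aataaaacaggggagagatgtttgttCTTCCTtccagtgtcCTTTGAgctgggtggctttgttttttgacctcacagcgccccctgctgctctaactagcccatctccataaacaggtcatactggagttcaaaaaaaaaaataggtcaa
Trac intron DHS, chr14:54222516-54222665: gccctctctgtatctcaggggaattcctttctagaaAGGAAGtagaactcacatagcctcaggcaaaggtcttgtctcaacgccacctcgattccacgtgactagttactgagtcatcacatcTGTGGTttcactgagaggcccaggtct
proximal Trac to Dad1 DHS, chr14:54227436-54227585: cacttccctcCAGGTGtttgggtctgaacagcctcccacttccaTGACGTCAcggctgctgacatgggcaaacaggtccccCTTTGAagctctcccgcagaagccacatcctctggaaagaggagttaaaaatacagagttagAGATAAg
distal Trac to Dad1 DHS, chr14:54233376-54233525: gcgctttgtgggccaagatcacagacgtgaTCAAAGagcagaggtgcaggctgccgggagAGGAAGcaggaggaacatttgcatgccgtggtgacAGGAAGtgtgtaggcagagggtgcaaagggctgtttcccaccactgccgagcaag
Trav15-1-dv6-1 DHS, chr14:53560306-53560455: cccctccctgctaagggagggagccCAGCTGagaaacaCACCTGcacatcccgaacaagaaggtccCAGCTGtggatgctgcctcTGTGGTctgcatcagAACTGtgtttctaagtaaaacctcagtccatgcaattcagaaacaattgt
Trav1 DHS, chr14:52427776-52427925: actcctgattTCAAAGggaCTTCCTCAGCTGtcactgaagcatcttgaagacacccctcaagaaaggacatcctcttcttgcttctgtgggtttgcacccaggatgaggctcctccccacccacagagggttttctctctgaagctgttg
The Trdj2 to Trdc stretch holds RUNX, GATA and MYB words. The proximal Trac to Dad1 stretch holds a palindromic CREB word (TGACGTCA, counted on both strands) with TCF/LEF, GATA and E-box words, and the distal one holds ETS words and a TCF/LEF word. A word match is a description of the sequence and not a bound site.

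Over the locus as a whole, DN2 libraries had the most open DHSs for the length of their lists and IgG libraries the fewest. As deposited, the LSK libraries had a peak in 33, 28 and 40 of the 152 rearranging DHSs, DN1 libraries in 77 and 45, DN2a libraries in 65 and 58, DN2b libraries in 71 and 123, and IgG libraries in 4, 2 and 8. The means were 33.7 ± 6.03 (SD, n = 3), 61 ± 22.6 (n = 2), 61.5 ± 4.95 (n = 2), 97 ± 36.8 (n = 2) and 4.67 ± 3.06 (n = 3). IgG libraries were thus below every other library, and DN2b above LSK, while DN1 and DN2a overlapped. LSK 3 and DN2b 1 had lists of nearly one length (62413 and 61515 peaks), and DN2b 1 had 71 sites to the 40 of LSK 3. At equal list lengths, over 41 DHSs, the LSK libraries had 13, 12 and 15, DN1 14 and 15, DN2a 27 and 22, DN2b 29 and 29, and IgG 2, 2 and 6. DN1 then overlapped with LSK, and all 4 DN2 libraries were above all others. The DN1 lead over LSK was thus lost at equal list lengths, the DN2 libraries, which as deposited overlapped with DN1, then stood clear of it, and IgG was lowest under both.

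**Figure D1:**
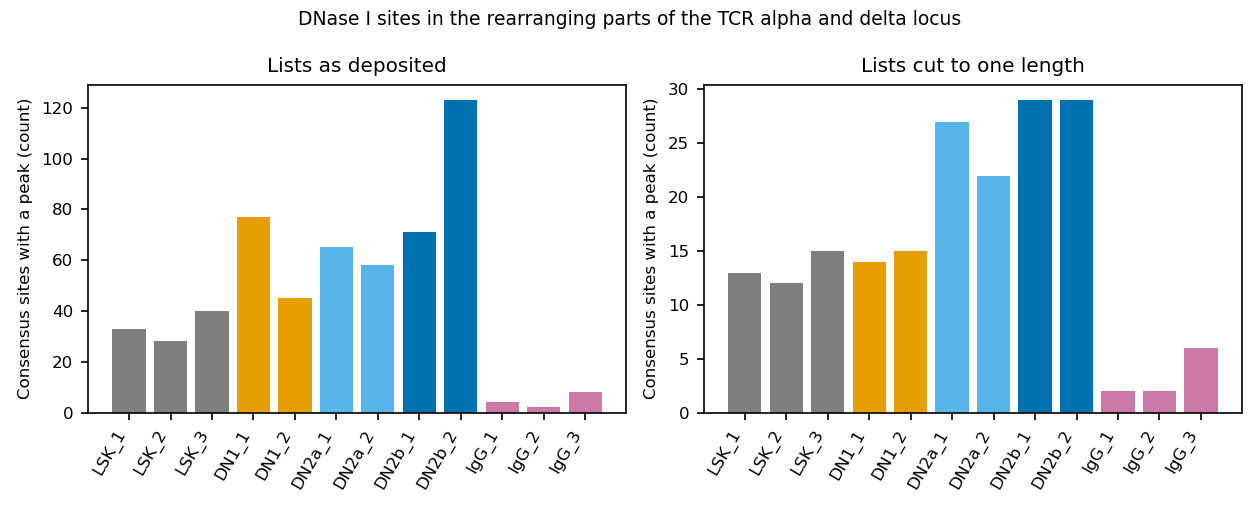
Number of consensus DHSs of the rearranging parts with a peak in each library (y axis, count), for the lists as deposited on the left and cut to 32952 peaks on the right. Bars are single libraries coloured by group. On the left DN2b 2 reaches 123 and DN1 1 77, and on the right the DN2 libraries have 22 to 29, the LSK and DN1 libraries 12 to 15 and the IgG libraries 2 to 6.

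In the lists as deposited, the rearranging parts held a smaller share of DHSs open in LSK, and larger shares first open at DN2a and DN2b, than the genome. This dating was not repeated at equal list lengths. A DHS was dated by the first of LSK, DN1, DN2a and DN2b in which at least 2 libraries had it. Of the 152, 32 (21.1%) were already open in LSK, against 30.9% of all DHSs, and 19 (12.5%) opened at DN1, against 11.6%. A further 11 (7.24%) opened at DN2a, against 2.91%, and 27 (17.8%) at DN2b, against 5.13%. DN2b includes the longest list. Of the 41 rearranging DHSs seen in a single library, 24 were seen in DN2b 2 alone, and the rule, which asks for 2 libraries, dated none of the 41. By part, the LSK libraries already had all 3 DHSs of the interval that were in more than 1 library, and 3 each of the delta and alpha J-C parts, whereas 3 delta DHSs were first open at DN2a and 3 at DN2b, and no alpha J-C DHS was first open after LSK by this rule.

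**Figure D2:**
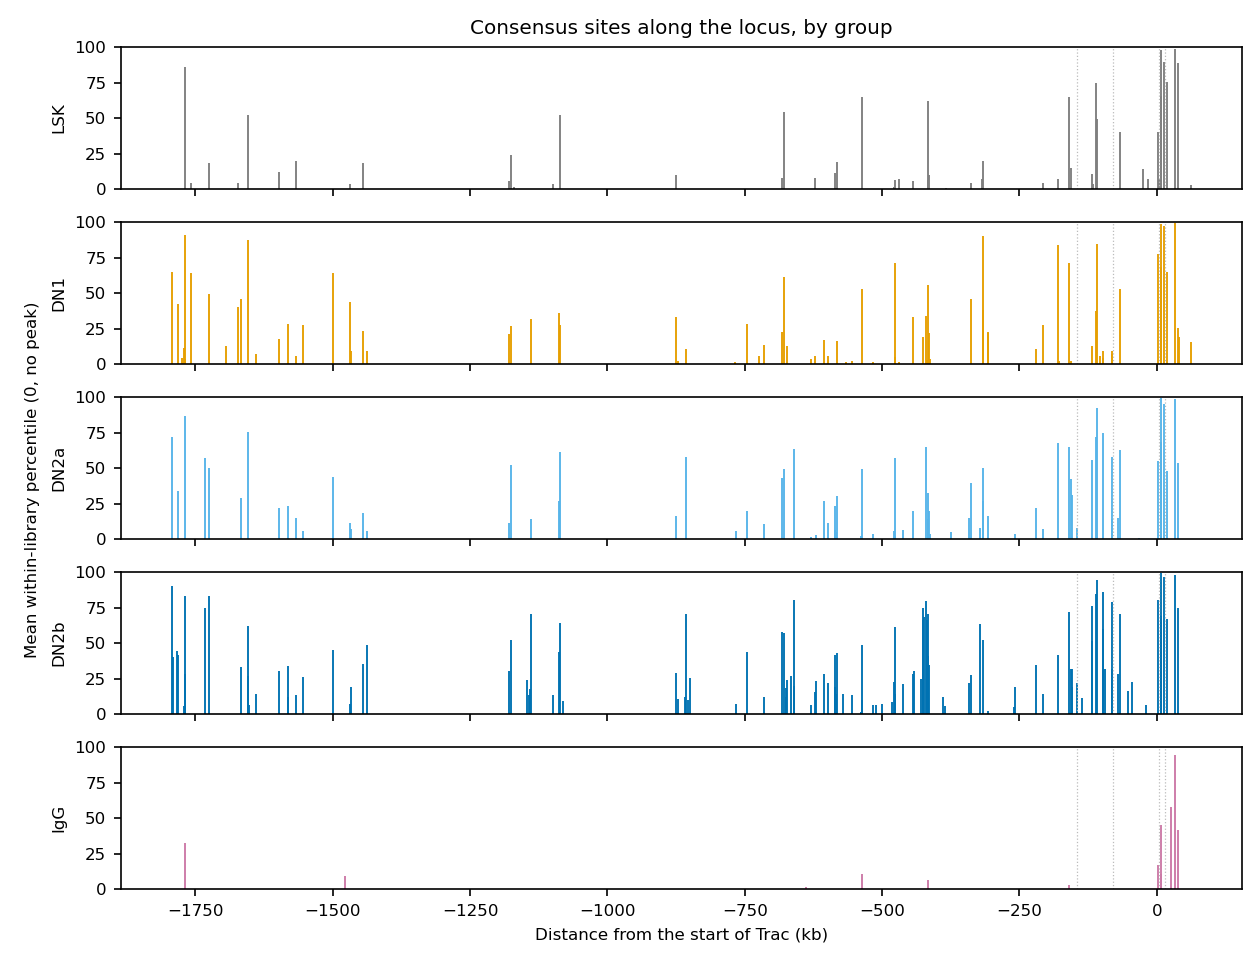
Mean within-library percentile of each DHS (y axis, 0 to 100, 0 for no peak) against its distance from the start of Trac in kb (x axis), 1 panel per group. Dotted lines part the V, delta, alpha J-C and interval parts from each other and from the Dad1 flank. The right end, from Trac to Dad1, is filled in LSK, DN1, DN2a and DN2b, the V part holds a mean of 24.3 DHSs in LSK, 51 in DN1, 50 in DN2a and 80 in DN2b, and the IgG panel is nearly empty to the left of Trac.

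In the delta part, 4 DHSs were higher in all DN2 libraries than in any other, 2 of them picked after their values were seen, and 3 of the 4 had no peak in LSK or IgG libraries. The share of all DHSs with such a separation was not counted. The smallest p of the DN2 test below was reached by 7 of 116 locus DHSs and 4386 of all 114527 tested. A DHS can be separated in this way without reaching that p, so these counts do not give the missing share. The number of open delta DHSs overlapped between DN1 (8 and 2) and DN2a (6 and 5) as deposited. At equal list lengths it did not, with 1 and 1 in DN1, 5 and 4 in DN2a, 6 and 5 in DN2b and 2 in each LSK library. The DHS that covers Trdd2 (chr14:54122077-54122246), one of the 2 delta D segments, had no peak in any LSK or IgG library or in DN1 2. Its percentile was 18.3 in DN1 1, 69.6 and 80.0 in DN2a and 79.0 and 92.4 in DN2b. The Trdj2 to Trdc DHS (chr14:54138377-54138566), 1634 bp past Trdj2 and 4380 bp before Trdc, followed the same course. It was at 0 in the LSK, IgG and DN1 2 libraries, at 18.3 in DN1 1, at 64.9 and 50.6 in DN2a and at 68.9 and 88.2 in DN2b. One more DHS (chr14:54103117-54103346), 10237 bp before Trdd1, was at 24.9 in DN1 1, at 69.6 and 42.3 in DN2a, at 68.9 and 82.9 in DN2b and at 0 elsewhere. In all 3 the 4 DN2 libraries lay above the other 8.

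The exact permutation test of percentile, 4 DN2 libraries against the other 8 (two-sided, 495 divisions), gave each of these 3 DHSs p = 0.00202, the smallest it can give. With Benjamini-Hochberg adjustment over the 114527 DHSs seen in at least 2 libraries that p became 0.0528 for the 4386 DHSs that share it, so none passed 0.05, and the test called 0% here and over the genome. At equal list lengths, where fewer DHSs are tested, the Trdd2 and Trdj2 to Trdc DHSs were called (exact permutation test, adjusted p = 0.0302 each). The DN1 1 peaks were then gone and both DHSs were present in all 4 DN2 libraries and in no other. The DHS 10237 bp before Trdd1 lost its peak in DN2a 2 and was not called (exact permutation test, adjusted p = 0.126).

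The highest delta DHS (chr14:54111177-54111366), 2197 bp before Trdd1, was open in LSK, was higher in all 6 libraries from culture on Delta1 and had no peak after culture on IgG. Its percentiles were 41.2, 58.9 and 48.7 in LSK, 83.1 and 85.8 in DN1, 92.0 and 92.7 in DN2a, 92.7 and 96.1 in DN2b, and 0 in all 3 IgG libraries. Libraries from culture on Delta1 did not overlap with the others, with means of 90.4 against 24.8 (exact permutation test over 924 divisions, adjusted p = 0.0265). It was the DHS of the locus called in both contrasts at equal list lengths (exact permutation test, adjusted p = 0.0284 for Delta1 culture and 0.0302 for DN2).

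Its neighbour 4587 bp before Trdd1 (chr14:54108777-54108986) dipped instead. It was at 73.4, 67.6 and 82.3 in LSK, at 43.6 and 30.5 in DN1, at 68.5 and 75 in DN2a, at 82.3 and 87.1 in DN2b and at 0 in IgG. Both DN1 values lay below all LSK and DN2 values, a difference picked out after the values were seen and not tested. DN2b alone had DHSs 87 bp before Trdj1, at 52.6 and 67.7, and 11147 and 10767 bp before Trdd1, at 38.1 and 65.0 and at 33.3 and 65.0. At equal list lengths the Trdj1 DHS was in DN2b 1 alone, at 11.5, and neither of the others kept a peak. A DHS 2034 bp past Trdj2 was in DN1 1 (13.9), DN2a 1 (27.9) and DN2b 2 (63.2) and a DHS 11467 bp before Trdd1 in LSK 1 (15.3) and LSK 2 (16.2). The other 5 of the 15 delta DHSs were in 1 library each.

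The Trdc record itself, 6018 bp long, held no DHS midpoint in any library. With 1 kb added on either side it took in a DHS at its 3′ end (chr14:54149237-54149386), which is 17 bp upstream of the inverted segment Trdv5 and was at 30.3 in DN2a 1, 57 in DN2b 2 and 0 in the other 10 libraries. The 5 promoters whose percentiles were most like this over the 12 libraries (of 12730 promoters with a peak in any) were Kcnj8, Ralgds, Ntn5, Ifitm3 and Mrc1, with mean absolute differences of 0.894 to 2.08 percentile points. Likeness to a pattern of 2 libraries mostly picks other promoters open in those 2.

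The alpha J segments were nearly closed. Of the 9 DHSs in the alpha J-C part, 4 were seen in 1 library each. The DHS 1974 bp before Traj61 (chr14:54152937-54153126), the most upstream J alpha record and a pseudogene, was the exception. It was at 41.2, 28.6 and 50.8 in LSK, 64.4 and 40.7 in DN1, 62.3 and 62.5 in DN2a, 59.0 and 81.5 in DN2b, and 0 in IgG. DN2 values lay above LSK values, and DN1 spanned both. Culture on Delta1 against the rest gave an adjusted p of 0.0603 (exact permutation test), and DN2 against the rest was called at equal list lengths (adjusted p = 0.0302). Within the J alpha array itself, the only DHSs in 2 libraries were 1 beside Traj23, at 10.2 in LSK 1 and 32.1 in LSK 3, and 1 beside Traj31, at 1.80 in DN2a 2 and 0.187 in DN2b 2.

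Trac held 1 DHS, in an intron (chr14:54222477-54222706). Its percentiles were 46.2, 8.12 and 67.0 in LSK, 76.5 and 77.8 in DN1, 64.9 and 44.5 in DN2a, 74.4 and 86.3 in DN2b, and 0, 0 and 50.9 in IgG. The DN1 and DN2b values lay above all LSK, DN2a and IgG values, and these last 3 groups overlapped. With lists of equal length DN1 1 (31.2) fell below LSK 3 (37.5) and IgG 3 (44.1), so the DN1 position was lost. Neither contrast called it (adjusted p = 0.0902 for Delta1 culture and 0.466 for DN2, exact permutation test).

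The interval between Trac and Dad1 (chr14:54224207-54235478) had the most DHSs for its length and was open before T lineage culture. It had 35.5 DHSs per 100 kb, against 20.3 in the delta part, 12 in the alpha J-C part, 9.30 in the Dad1 flank and 7.52 in the V part. That density rests on 4 DHSs in 11.3 kb, 1 of them in LSK 3 alone. Words of 36 bases that occur once in the window made up 98.4% of the interval and 51.1% of the V part. The proximal DHS (chr14:54227377-54227646), 3305 bp past Trac, was at 97.0, 98.2 and 99.2 in LSK, 98.4 and 98.7 in DN1, 99.5 and 99.2 in DN2a and 99.0 and 99.1 in DN2b. In IgG it was at 46.7, 0 and 89.3. Progenitors and precursors thus all had it among the top peaks of their lists, and each IgG library was lower.

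The distal DHS (chr14:54233357-54233546), 9245 bp past Trac and 2028 bp before the 3′ end of Dad1, was at 82.4, 95.1 and 91.3 in LSK, 96.4 and 97.9 in DN1, 97.5 and 93.1 in DN2a, 95.4 and 97.2 in DN2b, and 0 in all 3 IgG libraries. It was called for culture on Delta1 (means 96.3 and 44.8, adjusted p = 0.0444, exact permutation test), which rests on the IgG libraries at 0, and was not called at equal list lengths (adjusted p = 0.0951). A DHS 3945 bp past Trac was at 58.6 to 71.6 in LSK, 67.2 to 69.7 in DN1, 64.9 and 71.1 in DN2a, 50.8 and 87.1 in DN2b, and 0, 32.4 and 0 in IgG. The last one, 1045 bp past Trac, was in LSK 3 alone. The promoters most like the highest value in this interval were those of Runx3 (mean absolute difference 3.85 points), Osbpl3 (4.93), Sox4 (4.99), Tufm (5.50) and Zfp13 (5.79).

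**Figure D3:**
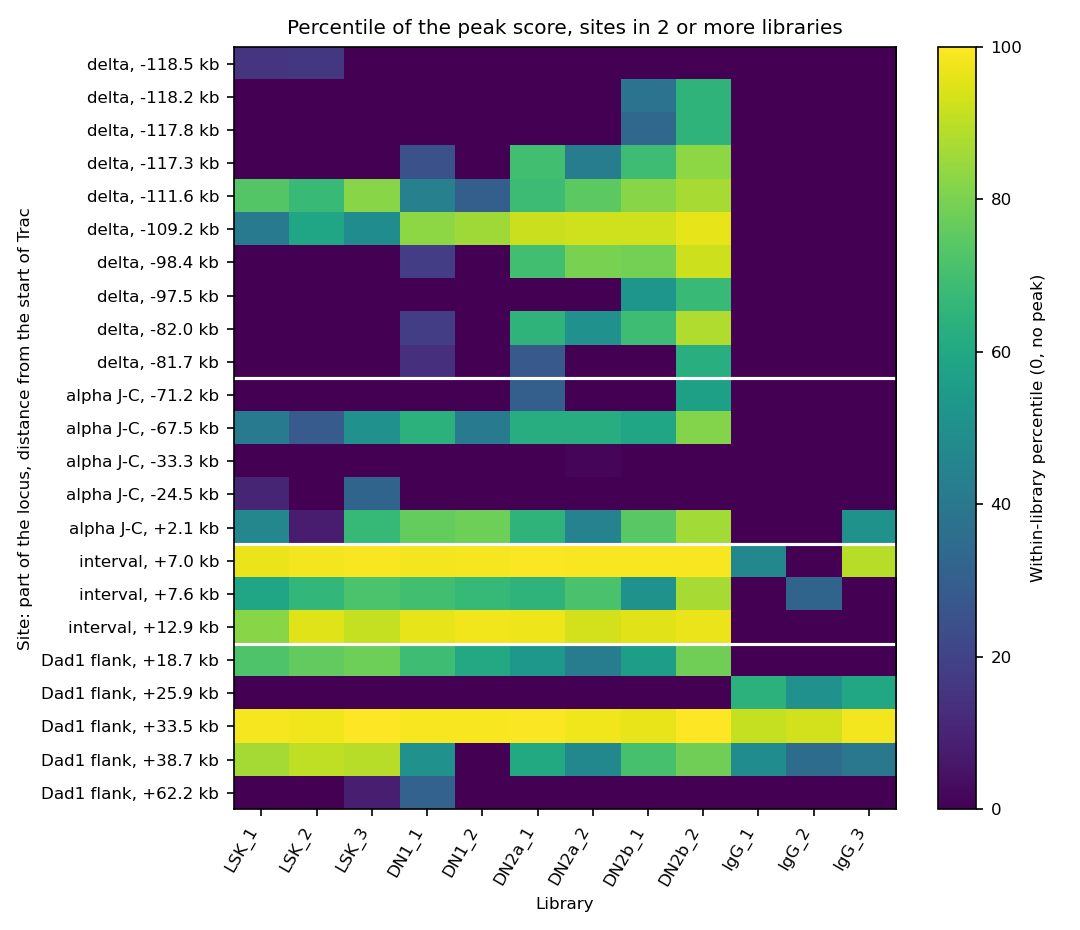
Within-library percentile (colour, 0 for no peak) of the DHSs seen in at least 2 libraries in the delta part, the alpha J-C part, the Trac to Dad1 interval and the Dad1 flank (rows, with distance from the start of Trac in kb) in the 12 libraries (columns). The proximal and distal interval rows are at 82.4 or more in all but the IgG columns and the row between them at 50.8 to 87.1, the Trdd2 row at -98.4 kb and the Trdj2 to Trdc row at -82.0 kb are filled in the DN2 columns, and the Dad1 promoter at +33.5 kb is filled in every column.

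Dad1, which encodes a subunit of the oligosaccharyltransferase needed by all cells, set the level for a gene open everywhere. The DHS at its start, shared with the opposite gene Abhd4 (chr14:54253917-54254146), was at 96.5 to 99.8 in the 9 libraries outside IgG and at 91.2, 93.3 and 98.4 in IgG. The IgG lists thus held peaks at this end of the window. Within Dad1 a DHS was seen in the 3 IgG libraries alone (64.1, 50.5 and 59.8), and another in all 9 other libraries and no IgG library (42.3 to 78.5). A DHS in Abhd4 was highest in LSK (86.4, 90.6 and 89.3), at 50.6 and 0 in DN1, and at 46.5 to 78.5 in DN2 and 35.3 to 48.7 in IgG.

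Some DHSs were present in a whole set of libraries and absent from the rest, and the V part, which held 124 of the 158 DHSs, had most of them. Those with a peak in each of the 4 DN2 lists and in no other list numbered 3 of 158 (1.90%), against 0.758% of all DHSs, and all lay in the V part. They were the Trav15-1-dv6-1 DHS (60.9 and 66.5 in DN2a, 78.3 and 82.4 in DN2b), a DHS 48 bp before Trav13-2 (27.9 and 18.2, 28.2 and 54.7) and a DHS in an exon of the olfactory receptor gene Olfr1507, which lies among the V segments (60.9 and 52.5, 65.6 and 83.3). The Trav15-1-dv6-1 DHS lay past the 3′ end of its V record and not ahead of it. Cut to equal list lengths, the count was 5 of 45 locus DHSs, against 1.98% of all, with the Trdd2 and Trdj2 to Trdc DHSs and 1 beside Trav13n-4 in it and the Trav13-2 DHS, which falls below the equal length in every library, out of it. Without DN1 1 the count as deposited was 9.

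DHSs with a peak in every one of the 6 lists from culture on Delta1 and in neither LSK nor IgG lists numbered 8 (5.06%), against 1.9%, and again all were in the V part. The highest was the Trav1 DHS (chr14:52427737-52427966), 77 bp before the first V segment, at 64.4 and 65.9 in DN1, 78.6 and 65.3 in DN2a and 88.4 and 91.4 in DN2b. The others were 134 bp before Trav6-1, 78 bp before Trav6n-6, and 10895 bp past Trav1, 13627 bp before Trav2, 4468 bp before Trav6d-3, 4129 bp past Trav8-1 and 21334 bp past Trdv1. With lists of equal length none of the 8 was in all 6 libraries (0 of 45, against 1.85% of all, so that 0 is near the background), and the Trav1 DHS, absent there from DN1 1, was at 28.2 in DN1 2, 55.5 and 39.2 in DN2a, and 78.4 and 70.8 in DN2b. A pattern added after the data were seen, presence in all 9 lists outside IgG and absence from IgG, was met by 9 DHSs (5.70%), against 3.17%, 8 of them in the rearranging parts. Its count at equal list lengths was 3 of 45, against 1.95%.

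The test of culture on Delta1 called 13 of the 116 locus DHSs seen in at least 2 libraries as higher (11.2%), against 9.24% of all DHSs, and 0 as lower, against 0.522%. That share is near the background, and with presence in place of percentile the same test called 0, in the locus and over the genome. The 13 were the 8 above, the DHS before Trdd1, the distal interval DHS, 1 DHS 83 bp before Trav16 (0, 0 and 18.6 in LSK, 42.7 to 79.6 from Delta1 culture), 1 DHS 66895 bp past Trav1 and 1 DHS 34134 bp before Trdv4. The last was at 0, 19.3 and 2.00 in LSK, 92.0 and 76.2 in DN1, 71.6 and 63.9 in DN2a and 25.6 and 57 in DN2b, so it was highest at DN1. At equal list lengths 1 of 39 was called higher, against 6.27%, and 0 lower, against 2.83%. Unadjusted p was under 0.05 for 33 of 116 (28.4%), against 20.8%, all higher.

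The DN2 contrast gave an unadjusted p under 0.05 in 31 of the 116 (26.7%), against 13.6% of all DHSs, all 31 higher in DN2. With single libraries left out, this count ran from 16 (without DN2b 2, the longest list) to 42 (without DN1 1). With lists of equal length it called 9 of 39 locus DHSs higher (23.1%), against 5.36%, and 0 lower, against 1.33%. The 9 were the Trdd1, Trdd2, Trdj2 to Trdc and Traj61 DHSs, the Trav1, Trav15-1-dv6-1, Trav13n-4 and Olfr1507 DHSs, and 1 DHS 4748 bp past the V record B230359F08Rik. The median difference between DN2 and the other libraries as deposited was 17.3 points over the locus and 4.46 over all DHSs. For these tests libraries count as independent although DN libraries may share an isolate.

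The V part was read through the uniqueness of its sequence. V segments are short genes, each with its own promoter, and the middle of the array has been copied so that its d and n named segments are nearly identical. Reads that fall in more than 1 place are left out of the lists. The read length is not given in the sources used here, so words of 36 bases were an assumed length, and longer paired reads would place more of the copies. Of the 36-base words of the V part, 51.1% occur once in the window, against 90.6% in the delta part, 99.3% in the alpha J-C part and 98.4% in the interval. Of 136 V records, 47 had a peak midpoint within 1 kb of their start in at least 1 library and 40 in at least 2. Pseudogenes made up 21 of the 136 records and 5 of these 47. The 47 included 37 of 63 segments without a d or n copy name, 4 of 39 d copies and 6 of 34 n copies, whose surroundings had median unique shares of 60.4%, 2.80% and 1.87%. Of segments with at least 50% unique words nearby 34 of 47 had a peak, and of the rest 13 of 89. Peaks were thus fewer where unique words were fewer, and the part this played in the lack of peaks at the d and n copies was not tested.

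**Figure D4:**
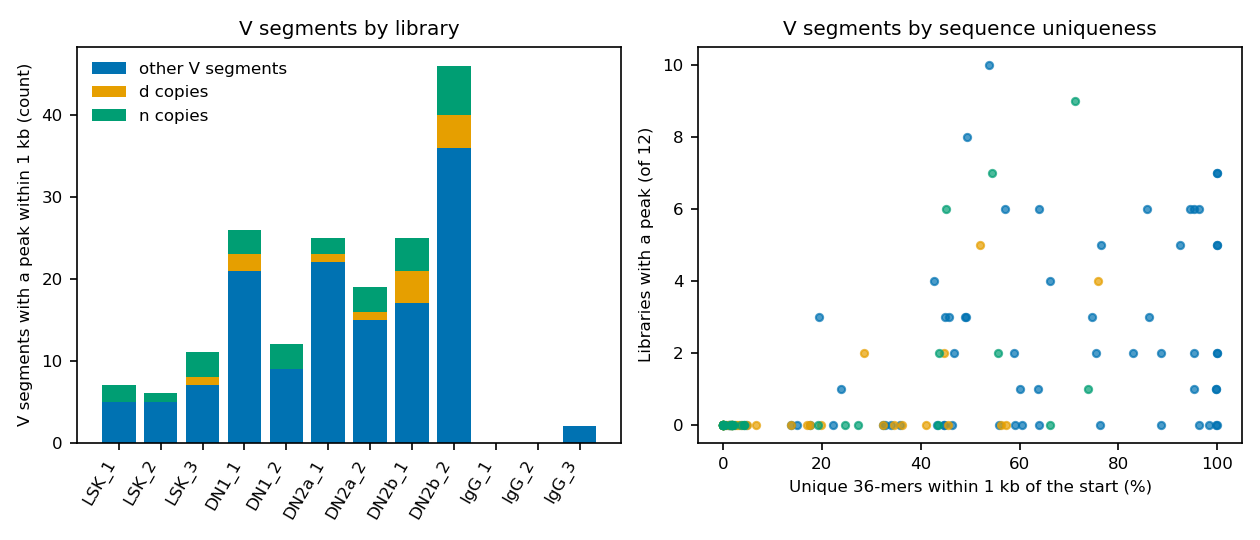
V segments with a peak within 1 kb of their start by library (left, count, stacked by copy class), and the number of libraries with such a peak against the percentage of unique 36-base words within 1 kb (right, 1 point per segment). Counts run from 0 in IgG 1 and IgG 2 to 46 in DN2b 2. Most segments with under 50% unique words sit at 0 libraries, and 13 of these 89 had a peak.

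By library, 7, 6 and 11 V segments had a peak in LSK, 26 and 12 in DN1, 25 and 19 in DN2a, 25 and 46 in DN2b and 0, 0 and 2 in IgG. The means were 8 ± 2.65 (SD, n = 3), 19 ± 9.90 (n = 2), 22 ± 4.24 (n = 2), 35.5 ± 14.8 (n = 2) and 0.667 ± 1.15 (n = 3). At equal list lengths the means fell to 1.67, 1.5, 5, 5.5 and 0.333, with DN1 no longer above LSK. Of the 124 V part DHSs, 41 (33.1%) lay within 500 bp upstream of a V record. Of 45 DHSs of at least 2 libraries within 1 kb of a V start, the median midpoint was 97 bp upstream, and 33 lay within 300 bp upstream. The larger share, 64 of 124 (51.6%), were neither in a V record nor within 500 bp of one. The 5 V part DHSs with the highest mean percentile had peaks in all 3 LSK libraries, also at equal list lengths. The highest, in an Olfr1509 exon (chr14:52451257-52451426), was at 85.2 to 87.9 in LSK, 79.7 to 92.0 from Delta1 culture and 34.9, 0 and 61.4 in IgG. The others in LSK were at 42.2 to 58.6 (1407 bp before Trav2), 46.2 to 77.9 (Trav4-4-dv10), 48.6 to 62.8 (chr14:53541697-53541946) and 58.9 to 72.7 (chr14:54059897-54060066).

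Segments differed in the libraries that had them. Trav11n, a pseudogene, had a peak in all 9 libraries outside IgG (from 16.9 in DN1 2 to 72.3 in DN2b 2) and Trav4-4-dv10 in those and in IgG 3. Trav1, Trav6-1 and Trav6n-6 were open in the 6 Delta1 libraries only. Trav2, Trav13d-4, Trav14d-3-dv8, Trav14n-3, Trav14-1 and the pseudogene Trav8-2 were open in the 2 DN2b libraries only, at 3.21 to 35.3, and DN2b 2 is the longest list. With lists of equal length no library kept a DHS within 1 kb of the start of these 6 segments, of Trav6-1 or of Trav6n-6. Their order thus rests on the lists as deposited and could not be compared at equal length. Delta V segments, which rearrange to the D delta segments, had peaks at 5 of 6 records. Trdv1 was at 0, 4.57 and 8.55 in LSK, 58.0 and 33.1 in DN1, 41.4 and 37.6 in DN2a and 0 and 54.7 in DN2b. Trdv4, the V segment next to the D segments, had a peak only in DN2a 1 and DN2b 2, as had Trdv2-2 and Trdv5. None of the 5 delta V records kept a DHS within 1 kb of its start at equal list lengths, so their order also rests on the lists as deposited. Of 10 segments with a dv name, used by both chains, 6 had a peak. By position, 8, 6, 9 and 16 segments in 4 successive stretches of the array (34, 34, 34 and 33 segments, from the Trav1 end to the Trdv4 end) were open in at least 2 libraries, with median unique shares of 15.4%, 1.80%, 33.2% and 66.2%.

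Some motif words were more frequent in these DHSs. In the 111 rearranging DHSs of at least 2 libraries, the RUNX word was in 40.5% of middle 150 bp windows, against 23.9% of all 114527 such DHSs. TCF/LEF words were in 18.0% against 10.8%, GATA in 14.4% against 7.49%, CAGCTG in 19.8% against 11.8%, CAGGTG in 17.1% against 12.3% and the recombination heptamer in 9.01% against 4.95%. ETS (37.8% and 34.7%), MYB (38.7% and 32.3%) and CTCF (8.11% and 6.46%) were close, and CREB (6.31% and 9.61%) was lower. These are counts of letters with no test.

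Promoters of genes that act on the locus were partly open in every library. Their counts are from the lists as deposited and have no share over all promoters beside them. Differences between groups are thus not set apart from list length. Of 11 genes of V(D)J recombination, 7 had an open promoter in each LSK and IgG library, 9 in each DN1, 10 and 9 in DN2a and 8 and 9 in DN2b. The 7 were general repair and chromatin genes such as Xrcc4, Lig4, Prkdc and Hmgb1. Rag1, which encodes the catalytic part of the recombinase, was open in all 6 Delta1 libraries and in no other, at 29.4 and 53.4 in DN1, 49.3 and 66.5 in DN2a and 67.9 and 88.9 in DN2b. The Rag1 peaks at 29.4 in DN1 1 and 49.3 in DN2a 1 ranked too low in their lists to be kept at equal list lengths. Its presence in all 6 thus holds for the lists as deposited only. Rag2, the partner of Rag1, was open in 1 DN1, 2 DN2a and 1 DN2b library. The promoter of Dntt, which encodes the transferase that adds bases at joints, had no peak in any. Of 5 receptor partners, Cd3e and Cd3g were open in all 4 DN2 libraries and no other, Cd3d and Cd247 in DN2b alone, and Ptcra, the partner of the beta chain, in none. Of 12 factors known to bind enhancers of the locus, 7 were open in each LSK and IgG library, 9 and 7 in DN1, 8 and 7 in DN2a and 8 and 10 in DN2b. The highest counts, 9 and 10, were in DN1 1 and DN2b 2, which have the longest lists. Runx1, Cbfb, Myb, Tcf3, Creb1 and Ctcf were open in every library, Tcf7 in the 6 Delta1 libraries only, and Gata3 in DN2b 2 alone. Tcf7 was at 43.6 and 45.2 in DN1, ranks too low in those lists to be kept at equal list lengths. Its DN2 values, 54.3 to 73.0, ranked high enough to be kept. The Tcf7 pattern of all 6 Delta1 libraries thus holds for the lists as deposited only. Of other receptor constant genes, Trbc1 had a peak in DN2b 2 and Trbc2 in none, and Trgc1, Trgc2 and Trgc4 could not be matched.

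**Figure D5:**
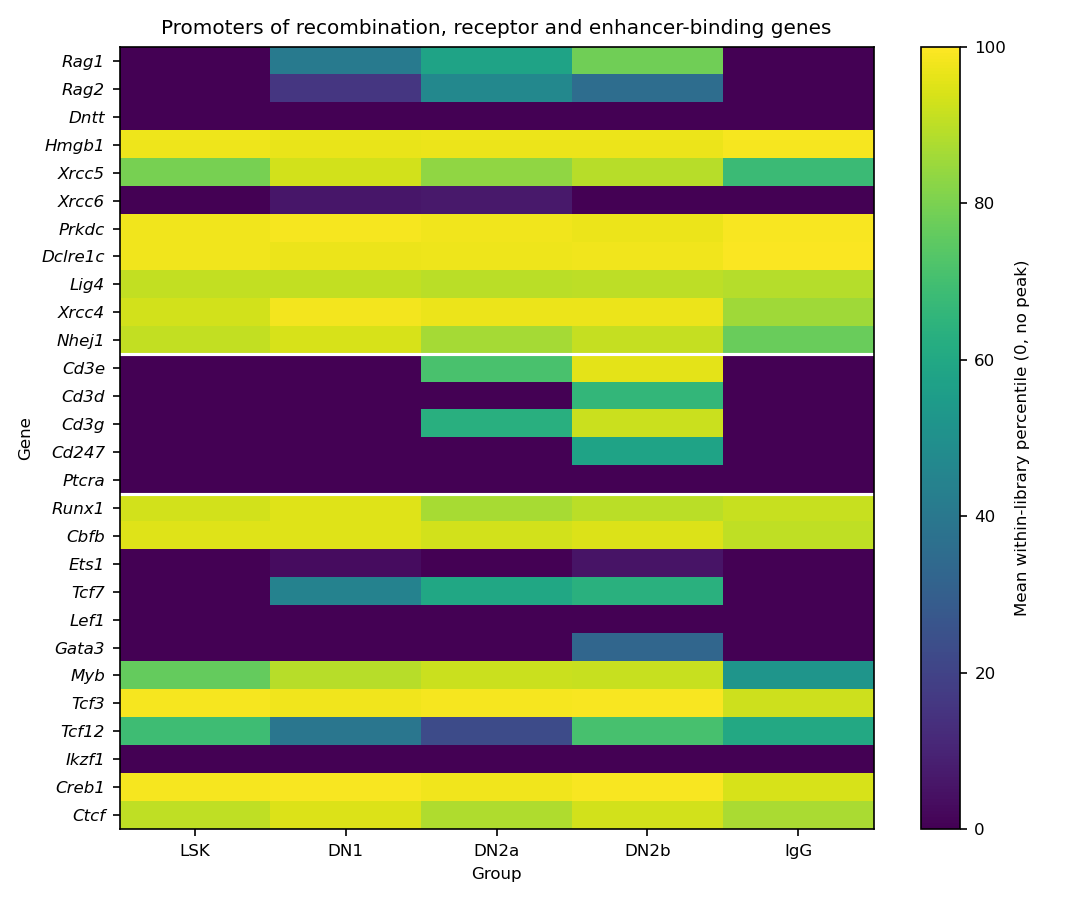
Mean within-library percentile by group (colour, 0 for no peak; columns are the 5 groups) of the promoters of V(D)J recombination genes, receptor partners and enhancer-binding factors (rows, top to bottom). Rag1 and Tcf7 are at 0 in LSK and IgG, Cd3e and Cd3g are filled in DN2a and DN2b only, and Dntt, Ptcra, Lef1 and Ikzf1 are at 0 in every group.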

How the data were processed

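DNase I digestion and paired-end sequencing were applied to 12 libraries in 5 groups. The authors trimmed adapters, aligned reads to mm10 with BWA 0.7.12 (SAMtools 1.2 is also named in the submitters' processing notes) and ran hotspot2 on every library singly, keeping peaks under an FDR of 0.05. File names give uniquely placed reads. The deposited score is a whole number whose meaning is not given in the sources used here, so only its rank within a list was used, ties at their mean rank. All peaks fitted within the GRCm38 chromosomes, and genes were taken from GENCODE M21.

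Peaks on autosomes and the X chromosome were merged at 1 bp of overlap, and a DHS took the highest percentile of its peaks in a library. Each DHS seen in at least 2 libraries was tested by a two-sided exact permutation test of the difference in mean percentile, with Benjamini-Hochberg adjustment over all 114527, for the 6 Delta1-cultured libraries against the other 6 (924 divisions, smallest p 0.00216) and for the 4 DN2 libraries against the other 8 (495 divisions, smallest p 0.00202). By this test, 2 groups of 2 or 3 libraries set against each other cannot reach p under 0.05, so they were described. Single groups against all other libraries were not tested. Independent LSK isolates are stated for the replicates, but the libraries that share an isolate are not marked, and no batch is labelled. The code was tested on simulated data. A promoter or V segment was open where a peak midpoint lay within 1 kb of the 5′ end of its record, and uniqueness counted words of an assumed 36 bases, on both strands and within the window only.

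The text names Trac, Trdc, Dad1 and delta or J alpha records with a peak, up to 5 top DHSs by mean percentile per part, DHSs with a presence pattern or a call, V segments open in at least 2 libraries, and the 5 promoters most like the Trdc and interval values, as those that matter among them. DHSs outside that rule that were named to account for the delta, alpha J-C and Dad1 parts, or for calls at equal list lengths, were chosen after their values were seen. The members, gene lists and tests were chosen with earlier results of these data known. Alternatives were equal list lengths (32952 peaks), the upper 50% of each list, merging at 50 bp or within 150 bp, testing every DHS, presence in place of percentile, V windows of 500 bp and 2.5 kb, and each library left out in turn. Python 3.11.15, numpy 2.4.6, pandas 2.3.3 and scipy 1.17.1 were used.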

Additional observations from a re-analysis of the deposited data

How the results depend on the processing

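At equal list lengths the counts of locus DHSs were 5 for presence in DN2 only, 0 for presence in Delta1 culture only (1.85% of all DHSs), 3 for presence in all but IgG (1.95% of all), and 1 (Delta1) and 9 (DN2) for the permutation test. The mean numbers of open rearranging DHSs were then 13.3 for LSK, 14.5 for DN1, 24.5 for DN2a and 29 for DN2b, and of open V segments 1.67, 1.5, 5 and 5.5. With the upper 50% of each list, 1 DHS had the Delta1 pattern and 2 the pattern without IgG, the tests called 3 (Delta1) and 5 (DN2), rearranging means were 11.3, 19.5, 23.5, 42 and 1 (LSK, DN1, DN2a, DN2b, IgG), and V segment means 1.33, 3, 4.5 and 9.5 outside IgG. Both cut weak peaks, and fewer DHSs were tested at equal list lengths. Presence in place of percentile called 0 in the Delta1 contrast, where 19 DHSs had an unadjusted p under 0.05; the cause was not tested. A V window of 2.5 kb gave 14.3 for LSK, 28.5 for DN2a and 2 for IgG. Merging at 50 bp or within 150 bp left the DN2 and Delta1 patterns and calls on the same side.

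With each library left out in turn, 3 to 9 DHSs had the DN2 pattern (9 without DN1 1), 8 to 14 the Delta1 pattern (14 without DN1 2) and 9 to 12 the pattern without IgG. The Delta1 test called 10 to 19 (19 without DN1 2) and the DN2 test 0 each time. Means ran from 30.5 to 36.5 (LSK), 45 to 77 (DN1), 58 to 65 (DN2a), 71 to 123 (DN2b) and 3 to 6 (IgG) rearranging DHSs, and from 6.5 to 9, 12 to 26, 19 to 25, 25 to 46 and 0 to 1 V segments. Depth is unknown, so a DHS missing from a short list may lie under its threshold. No paired analysis was possible because the labels give no replicate numbers that pair libraries.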
